A study of Vulpes vulpes with 8 samples.

Results

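The 10 chemokine genes described here, CXCL8, CXCL10, CXCL12, CXCL13, CXCL14, CCL2, CCL5, CCL19, CCL20 and CCL21, were chosen by symbol, and every probe set annotated with 1 of these symbols alone was taken. They held 18 probe sets of the 42924 on the array that are not controls, and 10 of the 15115 genes named by a single symbol. The samples were gingiva of 8 red foxes (Vulpes vulpes), hybridised to Affymetrix Canine 2 arrays, whose probe sets were designed for the dog, with 1 array per fox. Hereditary hyperplastic gingivitis (HHG) is an inherited overgrowth of the gum, and the affected group held the males 19, 55 and 107 and the females 381 and 757. The unaffected group held the males 86 and 97 and the female 402. Ages and genotypes are not given in the labels. Per the labels, diagnosis rested on early signs at the dental margin, and some pieces were taken after euthanasia and others under anaesthesia in another season, with no season assigned to each fox.

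Chemokines are small secreted proteins that bind receptors on leukocytes and draw them along a gradient. CXCL8 acts mainly on neutrophils through CXCR1 and CXCR2, CCL2 draws monocytes through CCR2, and CXCL10, CCL5 and CCL20 draw T cells, dendritic cells and other leukocytes that carry receptors such as CXCR3 or CCR6. CXCL13, CCL19 and CCL21 place B and T cells within lymphoid tissue, and CXCL12 and CXCL14 are made by stromal and epithelial cells. In gum, bacteria at the tooth margin are known to evoke CXCL8 in epithelium and a steady passage of neutrophils into the crevice. These roles come mostly from work in humans and mice.

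Levels are MAS5 signals, linear intensities that can be compared between foxes within a probe set and not between probe sets. Differences are affected minus unaffected on the log2(signal + 16) scale, with the standard error (SE) from limma. All 18 chemokine probe sets passed the filter that left out the 40% with the lowest mean. In the limma fit no probe set of any gene passed an adjusted p of 0.05, while 693 of 25754 had an unadjusted p under 0.05. The median signal per array was 28.6 to 33.7, and the background read from bacterial control probe sets was 7.42 to 16.6. KRT10, DSP and DSG3 of keratinocytes and COL1A1 of fibroblasts were above background in every fox. The 5′ probe set of beta-actin, which reads the 5′ end of the transcript, was high in foxes 107, 757, 86 and 97 and low in 19, 55, 381 and 402. The labels do not say that each piece came from a separate litter or collection, so p-values measure the spread between these foxes.

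CXCL8, the neutrophil chemoattractant, had the highest mean difference among the 10 genes by brightest probe set, and its 3 probe sets gave the 3 smallest unadjusted p-values of the 18. In the brightest probe set the affected foxes 19, 55, 107, 381 and 757 read 2589, 3496, 2777, 1664 and 3980, and the unaffected foxes 86, 97 and 402 read 2742, 865 and 1496. The unaffected foxes 97 and 402 lay below every affected fox, but fox 86 lay among the affected foxes, so the groups overlapped. Affected foxes averaged 2901 ± 889 (SD, n = 5) and unaffected foxes 1701 ± 955 (SD, n = 3). The difference was 0.86 ± 0.38 (SE), a 1.81-fold higher level, and limma gave an adjusted p of 0.9999 and an unadjusted p of 0.0459. The two-sided exact permutation test over the 56 ways to split the foxes gave p = 0.107.

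The second CXCL8 probe set read 2835, 2074, 2246, 1568 and 4542 in affected foxes and 1762, 593 and 1625 in unaffected foxes, in the same order of fox numbers. The third read 2476, 1599, 1913, 1352 and 4308 in affected foxes and 1438, 455 and 1429 in unaffected foxes. Fox 757 was highest and fox 97 lowest in all 3. Their differences were 1.04 ± 0.41 and 1.11 ± 0.45 (SE), with limma unadjusted p-values of 0.0295 and 0.0339. The 3 probe sets read 1 gene and are not 3 replicates, with r over foxes of 0.86 to 1.0 between them. Without fox 97 the difference of the brightest probe set was 0.46, and without fox 86 it was 1.28. It was 0.92 among males alone and 0.78 among females alone. It was 1.10 within the foxes of high 5′ actin and 0.72 within those of low 5′ actin. In the third probe set these 2 values were 1.80 and 0.29.

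Across the 18 probe sets, 3 had an unadjusted p under 0.05 with a higher mean in affected foxes, all of CXCL8, where 1.16% of all probe sets tested did so. None had one with a lower mean, where 1.53% of all did. No chemokine probe set had an adjusted p under 0.05, and the share called among all probe sets was 0.0%. A difference of at least 0.5 on the log2 scale was found with affected foxes higher in 4 of the 18, where 2.71% of all probe sets had one, and with affected foxes lower in 3, where 3.21% did. In no probe set of these genes did the groups separate, which 0.909% of all probe sets did with affected foxes higher and 1.52% with affected foxes lower. The mean was higher in affected foxes in 11 of 18 probe sets, against 43.5% of all probe sets, and the median difference was 0.25 over the chemokine probe sets and -0.037 over all. With the actin ratio as a covariate the count was 12 and the median 0.50. The lead of 11 over 7 rested on single foxes. The count of higher means was 14 without fox 86, and it was 7 without fox 97 and 7 without fox 402.

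**Figure D1:**
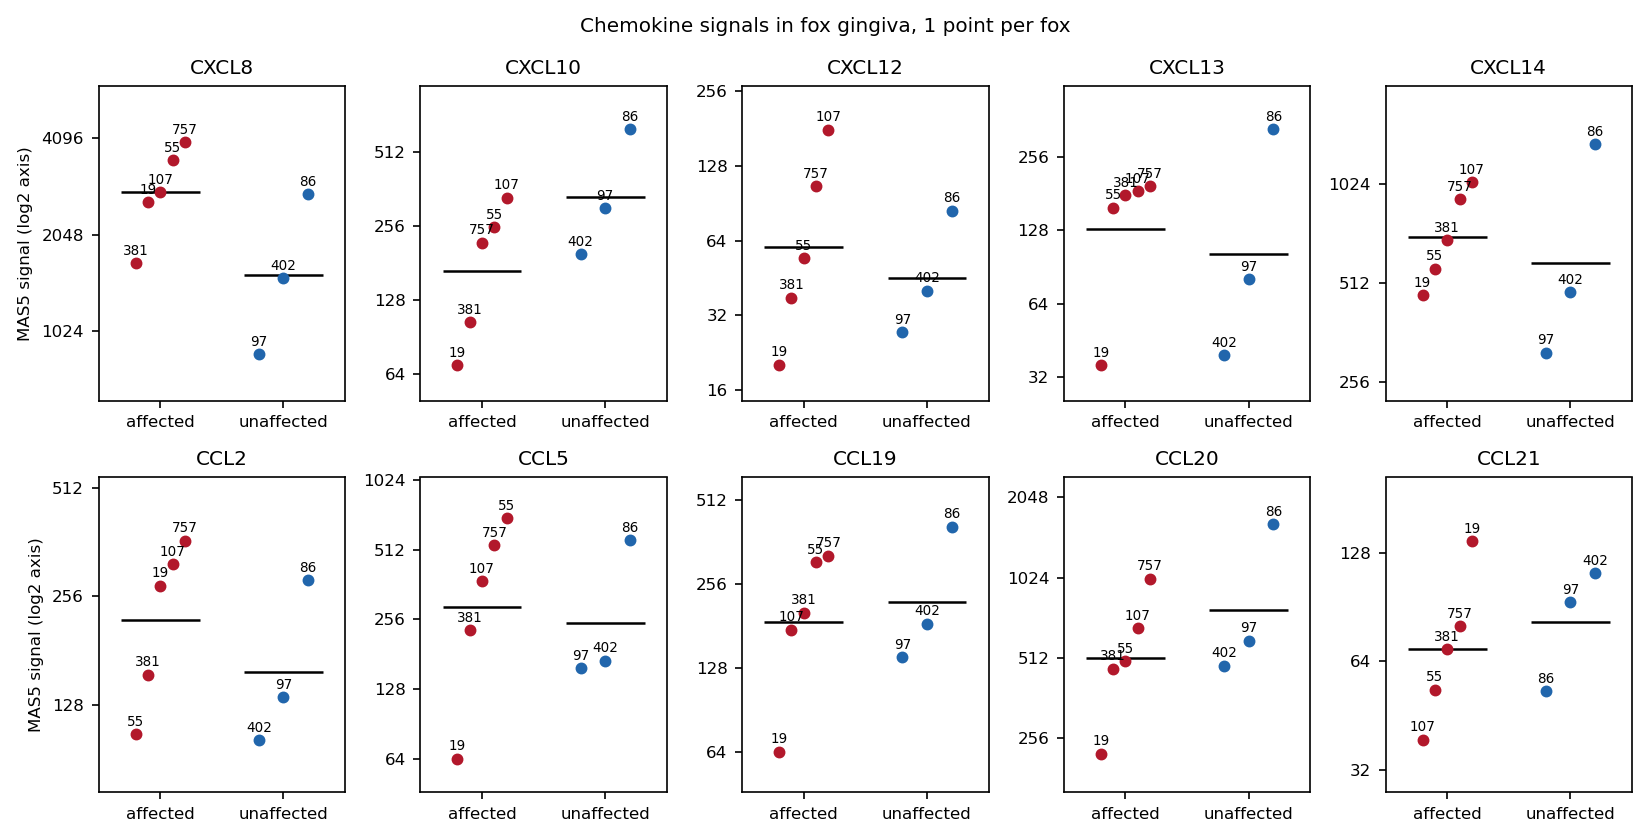
MAS5 signal (log2 axis) of the brightest probe set of each chemokine, 1 point per fox with its number, affected foxes in red at the left and unaffected foxes in blue at the right; the black bar is the mean of the log signals of the group. For CXCL8 the unaffected foxes 97 (865) and 402 (1496) lie below the lowest affected fox (1664), and for CXCL10, CXCL13, CXCL14, CCL19 and CCL20 the highest point is unaffected fox 86.

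CCL2, the main attractant of blood monocytes, had 1 probe set, which read 274, 106, 315, 155 and 366 in affected foxes 19, 55, 107, 381 and 757, and 284, 135 and 102 in unaffected foxes 86, 97 and 402. Fox 86 and 3 of the affected foxes were high, and foxes 55, 381, 97 and 402 were low, so the groups overlapped. The difference was 0.45 ± 0.42 (SE), with an exact permutation p of 0.357. It stayed above 0 with each fox left out, at 0.16 to 0.84. With the 5′ to 3′ actin ratio as a covariate it was 0.86 ± 0.31 (SE), with a limma adjusted p of 0.9997, and with the actin set as a block 0.69 ± 0.32 (SE). Markers of monocytes and macrophages summed to 1689 to 4517 in affected foxes and 1532 to 4996 in unaffected foxes. Of the 8 tested, 7 had a higher mean in affected foxes, against 43.5% of all probe sets, with a median difference of 0.29. CD68, a lysosomal protein of macrophages, was the one with the smallest p among them, at 1.06 ± 0.35 (SE) with a limma adjusted p of 0.9999. Its other probe set tested differed by 0.31. AIF1, the marker with a lower mean, differed by -0.10 ± 0.57 (SE). The part of monocytes and macrophages in the level of CCL2 was not tested.

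CXCL10, which interferon gamma induces and which draws CXCR3-bearing T cells, had lower mean levels in affected foxes in both of its probe sets. The brighter read 69.3, 253, 335, 104 and 219 in affected foxes and 637, 304 and 197 in unaffected foxes. Affected foxes 19 and 381 lay below all unaffected foxes, and fox 86 lay above every other fox. Affected foxes averaged 196 ± 109 (SD, n = 5) and unaffected foxes 379 ± 230 (SD, n = 3), and the difference of -0.93 ± 0.50 (SE) had an exact permutation p of 0.25. The dimmer read 15.3, 32.4, 61.8, 26.6 and 67.1 in affected foxes and 141, 38.3 and 25 in unaffected foxes, a difference of -0.41 ± 0.46 (SE). Without fox 86 the differences were -0.48 and 0.17, so the dimmer probe set changed its direction.

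CCL5, a T cell and monocyte attractant made by activated T and NK cells, read 64.1, 698, 375, 230 and 536 in affected foxes and 561, 158 and 169 in unaffected foxes. The affected group held both the lowest fox, 19, and the highest, 55, which were 8.92-fold apart in signal + 16. The difference was 0.24 ± 0.67 (SE), with an exact permutation p of 0.821. It was 0.80 without fox 86 and -0.061 without fox 97.

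CCL20, the ligand of CCR6 that epithelium makes in response to bacteria and to IL-17, read 224, 496, 662, 466 and 1014 in affected foxes and 1622, 593 and 478 in unaffected foxes. Fox 86 was highest, 757 next and 19 lowest, and the remaining foxes of the groups lay among each other. The difference was -0.58 ± 0.49 (SE), with an exact permutation p of 0.393, and without fox 86 it was -0.053. The second CCL20 probe set read 147, 268, 669, 495 and 573 in affected foxes and 1086, 509 and 312 in unaffected foxes, a difference of -0.54 ± 0.51 (SE). The differences of these probe sets were 0.51 and 0.74 among females, with only fox 402 as the unaffected female, and -1.20 and -1.27 among males. The difference of the disease effect between the sexes had a limma adjusted p of 1.0 for every chemokine probe set.

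CXCL13, the B cell attractant of lymphoid follicles, had the probe set with the widest spread over foxes among the 18, its second by mean log2 value. Its first probe set read 35.7, 158, 185, 178 and 193 in affected foxes and 333, 80.4 and 39.3 in unaffected foxes. The affected foxes other than 19 lay close together, between fox 97 and fox 86, and fox 19 lay below all others. The difference was 0.28 ± 0.61 (SE), with an exact permutation p of 0.643.

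The second CXCL13 probe set read 12.7, 106, 367, 322 and 368 in affected foxes and 714, 39.7 and 2.68 in unaffected foxes. On the linear scale it had the higher mean signal, 235.1 against 149.9 in affected foxes and 252.3 against 150.8 in unaffected foxes. The signal of fox 402 lay at or below its background, so its 39.1-fold range on the log2(signal + 16) scale depends on the offset. The difference was 0.96 ± 1.17 (SE), and it ran from -0.19 without fox 402 to 2.46 without fox 86. Among the 18 probe sets, it alone had an unadjusted limma p under 0.05 for the difference of the disease effect between the sexes, where 2.48% of all probe sets had one. That difference was 5.14 ± 2.05 (SE), with a limma adjusted p of 1.0. That value is 4.27 in females, with fox 402 as the only unaffected fox, minus -0.87 in males.

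CCL19 and CCL21, the ligands of CCR7 that guide T cells and dendritic cells into lymph nodes, were placed differently over the foxes. The brighter CCL19 probe set read 63.95, 307, 176, 202 and 324 in affected foxes and 412, 140 and 185 in unaffected foxes. CCL21, which lymphatic endothelium makes, read 138, 53.5, 38.8, 69.4 and 80.0 in affected foxes and 53.0, 93.5 and 113 in unaffected foxes. Fox 19 was the lowest for CCL19 and the highest for CCL21. The differences were -0.21 ± 0.48 for CCL19 and -0.20 ± 0.33 for CCL21 (SE), with exact permutation p-values of 0.786 and 0.643. The dimmer CCL19 probe set read 11.1, 177, 77.7, 77.6 and 194 in affected foxes and 242, 58.9 and 66.2 in unaffected foxes, a difference of -0.23 ± 0.65 (SE). The brighter one changed its sign without fox 86, at 0.22, and CCL21 kept it, at -0.46 to -0.010 with each fox left out.

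CXCL12, which retains CXCR4-bearing cells in stroma, read 20.3, 54.5, 179, 37.7 and 106 in affected foxes and 84.7, 27.4 and 40.3 in unaffected foxes. Foxes 107 and 757 were highest and fox 19 lowest, so the affected foxes spanned the whole range. The difference was 0.35 ± 0.51 (SE), with an exact permutation p of 0.607, and it was 0.030 without fox 107. It was 1.22 within the foxes of high 5′ actin and -0.13 within those of low 5′ actin. The second CXCL12 probe set, at 14.3 to 25.2 in affected foxes and 8.87 to 35.8 in unaffected foxes, lay near background and gave 0.086 ± 0.25 (SE).

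CXCL14, a chemokine that epithelium makes at rest, read 470, 567, 1036, 690 and 921 in affected foxes and 1351, 315 and 480 in unaffected foxes. All affected foxes lay between fox 97 and fox 86, and fox 402 lay next to fox 19, the lowest affected fox. The difference was 0.25 ± 0.43 (SE) and that of the second probe set 0.42 ± 0.50 (SE), with exact permutation p-values of 0.679 and 0.536. Without fox 86 the first was 0.83, and without fox 97 it was -0.19.

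**Figure D2:**
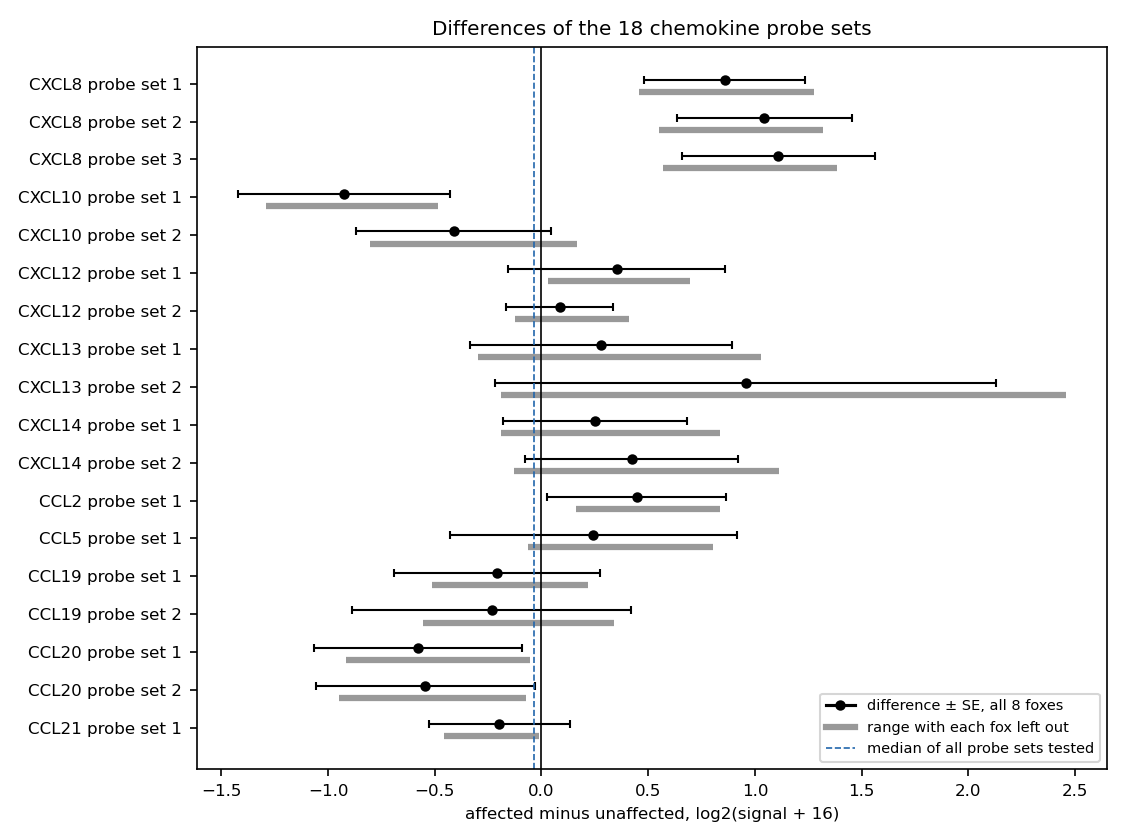
Affected minus unaffected difference on the log2(signal + 16) scale for each of the 18 probe sets, numbered within a gene from bright to dim; points and bars are the difference ± SE from limma, grey bars the range with each fox left out in turn, and the dashed line the median of all probe sets tested. The grey bars of the 3 CXCL8 probe sets stay above 0, from 0.46 to 1.38, and those of CXCL13, CXCL14, CCL5, CCL19 and the dimmer CXCL10 and CXCL12 probe sets cross it.

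The foxes differed more in these genes than in most. The SD over the 8 foxes had a median of 0.82 on the log2 scale for the chemokine probe sets and 0.32 for all probe sets tested, and the SE of the difference between the groups had medians of 0.48 and 0.23. Unaffected fox 86 was the highest of the 8 foxes in 11 of the 18 chemokine probe sets, against 17.7% of all probe sets tested. Affected fox 19 was the lowest in 9 of the 18, against 14.7% of all. Counted by gene, fox 86 was highest for 5 of the 10 and fox 19 lowest for 6 of the 10. CXCL8, CCL2 and CCL21 were the genes in which fox 19 was not low, since it lay above its own gene's mean over foxes by 0.22, 0.45 and 0.76 on the log2 scale. The median difference of the chemokine probe sets was 0.75 without fox 86, where that of all probe sets was -0.039.

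Markers of lymphocytes and dendritic cells were mostly highest in fox 86, which was the highest fox in 17.7% of all probe sets tested. The fox with the lowest sum differed between the lists. The 8 T cell markers tested summed to 185 to 1062 in affected foxes, lowest in fox 19, and to 359 to 1807 in unaffected foxes, highest in fox 86, and 7 of the 8 were highest in fox 86. All 4 B cell and plasma cell markers tested were highest in fox 86, with sums of 1208 to 9361 in affected foxes and 805 to 12300 in unaffected foxes, lowest in fox 97. All 4 dendritic cell markers tested were highest in fox 86 as well, with sums of 132 to 218 in affected foxes and 132 to 440 in unaffected foxes. This was not particular to lymphoid cells. Fox 86 was also highest for 3 of 4 blood endothelium, 4 of 6 fibroblast and 4 of 8 monocyte and macrophage markers tested, but for 0 of 6 neutrophil markers. Keratinocyte markers summed to 12790 to 21710 in affected foxes and 8900 to 21340 in unaffected foxes, and were lowest in fox 86. Of the defining markers, CD8A and CD5 of T cells and CD79B and PAX5 of B cells fell below the filter. Fewer cells of a type and less RNA per cell cannot be told apart in whole tissue, and the part of these cells in the chemokine levels was not tested.

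**Figure D3:**
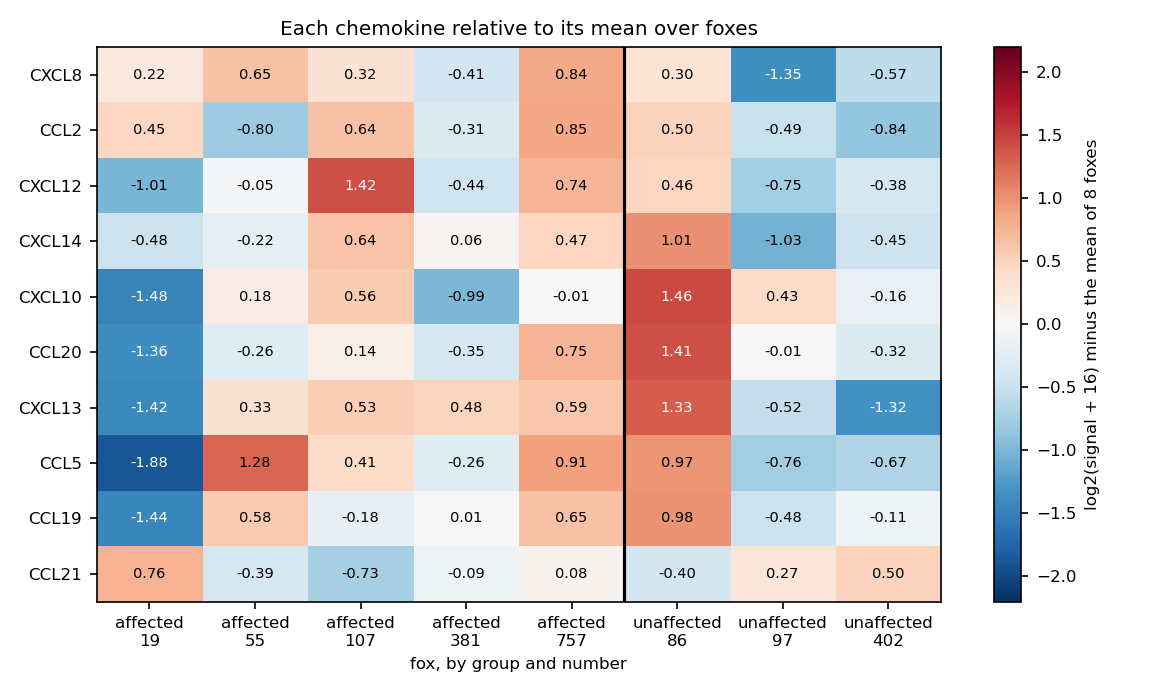
Log2(signal + 16) of each chemokine's brightest probe set minus its mean over the 8 foxes, with affected foxes at the left of the line and unaffected foxes at the right. Fox 86 is above the mean for every gene except CCL21 (-0.40), and fox 19 is below it for CXCL10 (-1.48), CCL20 (-1.36), CXCL13 (-1.42), CCL5 (-1.88), CCL19 (-1.44), CXCL12 (-1.01) and CXCL14 (-0.48).

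The 10 chemokines, each by its brightest probe set, gave 45 pairs over the 8 foxes. Pearson's r was above 0 in 36 of them, with a median of 0.57, and the other 9 were the pairs with CCL21. By two-sided exact permutation, 13 pairs had an unadjusted p under 0.05 and none an adjusted p under 0.05 over the 45, the smallest being 0.0647. By Spearman's rho, 16 pairs had an unadjusted p under 0.05 and none an adjusted one, the smallest being 0.129. The median r was 0.63 with values centred within the groups and 0.49 with values centred within the 5′ actin sets, which hold 4 foxes each and were too few to test alone. It was 0.43 without foxes 19 and 86. The same counts were not made for pairs of other genes, so these are not shown to be particular to chemokines. High r was common on these arrays. Of the other genes tested, 10.9% had an r of at least 0.63 with CXCL10 and 11.7% an r of at least 0.67 with CCL5.

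CCL5 and CCL19 had the highest r, 0.93 with rho 0.86, an exact permutation p of 0.00144 and an adjusted p of 0.0647. Foxes 86, 55 and 757 were high for both and fox 19 low for both, and r was 0.85 without foxes 19 and 55, which lie farthest from the median of CCL5. CXCL13 had r of 0.84 with CCL5 and 0.81 with CCL19 (rho 0.74 and 0.79, exact permutation adjusted p 0.0794 for both), and without foxes 19 and 402 these were 0.67 and 0.80. CXCL10 and CCL20 had r of 0.85 with rho 0.86, and CCL19 and CCL20 r of 0.84 with rho 0.62, at exact permutation p-values of 0.0106 and 0.0124 and an adjusted p of 0.0794 for both. Without foxes 19 and 86 these were 0.36 and 0.38, so both rest largely on those foxes.

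CXCL8 had r of 0.07 and rho 0.21 with CXCL10 (exact permutation p = 0.873, adjusted p 0.892), but r of 0.58 with values centred within the groups. Its r with CCL20 was 0.23, and 0.62 centred within the groups, close to the centred median of 0.63 over the 45 pairs. Its highest r within the 10 genes was 0.66 with CXCL14 (rho 0.62, exact permutation p = 0.0716, adjusted p 0.156), and 0.13 without foxes 402 and 97. CCL21 had r of -0.85 with CXCL13 and -0.80 with CCL5 (rho -0.79 and -0.76, exact permutation p-values of 0.00923 and 0.0175, adjusted p 0.0794 for both). Without the 2 foxes farthest from the median these were -0.56 and -0.63.

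**Figure D4:**
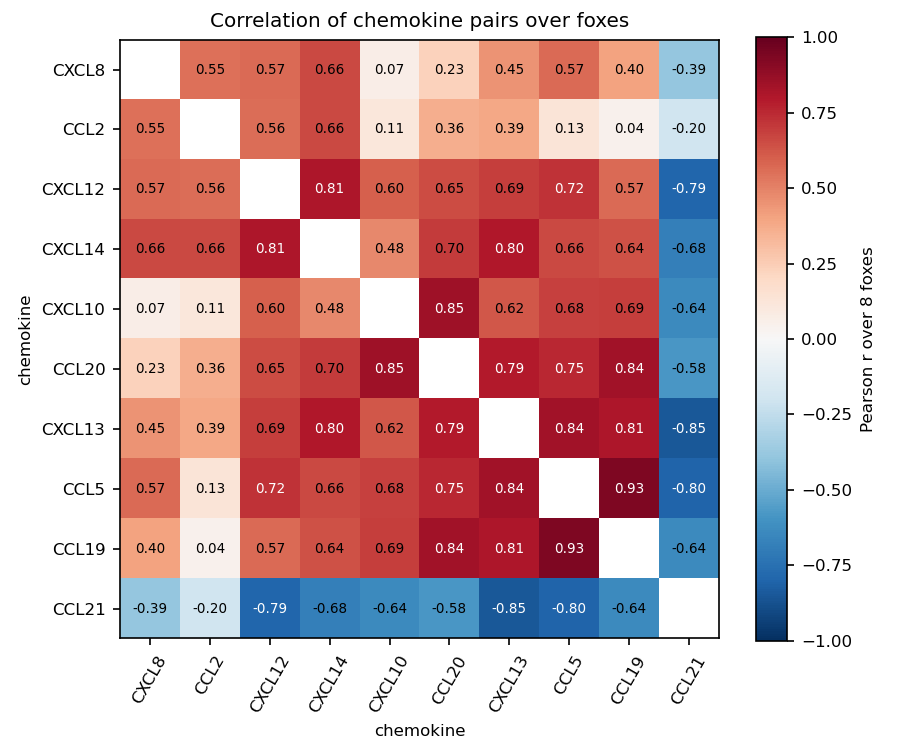
Pearson r over the 8 foxes for each of the 45 pairs of chemokines, by brightest probe set, on log2(signal + 16). CCL21 is negative with all 9 others (-0.85 to -0.20), CCL5 and CCL19 are the highest pair (0.93), and CXCL8 and CCL2 have r of 0.07 and 0.11 with CXCL10.

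Of 11 receptors listed for these ligands, 5 were tested: CXCR3, the receptor of CXCL10, CCR1 of CCL5, CCR6 of CCL20, CCR7 of CCL19 and CCL21, and ACKR3, an atypical receptor that takes up CXCL12. CXCR1, CXCR2 and CXCR4 are unnamed here, and CXCR5, CCR2 and CCR3 fell below the filter. Of the 5, 3 had a higher and 2 a lower mean in affected foxes, with a median difference of 0.19 and no limma adjusted p under 0.05. CXCR3 differed by 0.19 in its brighter probe set and by -0.22 in the other. CCR6 read 11.3, 33.8, 34.2, 36.3 and 46.6 in affected foxes and 82.9, 25.6 and 31.98 in unaffected foxes. CCR7 read 16.3, 32.2, 23.7, 32.1 and 32.8 in affected foxes and 65.5, 18.8 and 16.1 in unaffected foxes. Fox 86 was highest for both, and the other foxes of the groups overlapped. CXCR5, the receptor of CXCL13, read 0.924 to 11.3 in affected foxes, and in unaffected foxes 26.1 in fox 86 and at most 3.09 in the others.

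Correlations of ligand and receptor over the foxes were computed after values had been seen, for 6 pairs, with p-values adjusted over the 6. CCL20 and CCR6 had r of 0.94 (rho 0.69) with an exact permutation p of 0.00389 and an adjusted p of 0.0234, while the adjusted p for rho was 0.0997. Only 0.21% of the 10487 genes searched had an r with CCL20 at least as high. Without foxes 19 and 86 r was 0.61, so the relation rests in part on those foxes. The CCR6 signal of fox 19, 11.3, lay near its background of 9.88. It was 0.93 with values centred within groups and 0.99 within the 5′ actin sets.

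CCL19 and CCR7 had r of 0.81 (rho 0.86) with an adjusted p of 0.0396 by exact permutation, and r of 0.77 without foxes 86 and 19. CXCL12 and ACKR3 had r of 0.80 (rho 0.81) with an adjusted p of 0.0396 by exact permutation, and r of 0.79 without foxes 757 and 107. These are not rare values here, since 3.54% of genes had an r with CCL19 as high as that of CCR7 and 1.76% an r with CXCL12 as high as that of ACKR3. ACKR3 was high in foxes 55, 107, 757 and 86 (1153, 1045, 1454 and 971) and low in foxes 19, 381, 97 and 402 (393, 300, 288 and 497). CCL5 and CCR1 had r of 0.67 (rho 0.83), CXCL10 and CXCR3 0.63 (rho 0.62), and CCL21 and CCR7 -0.61 (rho -0.67), with exact permutation adjusted p-values of 0.1, 0.102 and 0.102. The CCR1 signal of fox 97, 2.12, lay below its background of 9.46. None of the 6 pairs had an adjusted p under 0.05 without fox 757 or without fox 86, and 1 did without fox 55, 381 or 97.

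**Figure D5:**
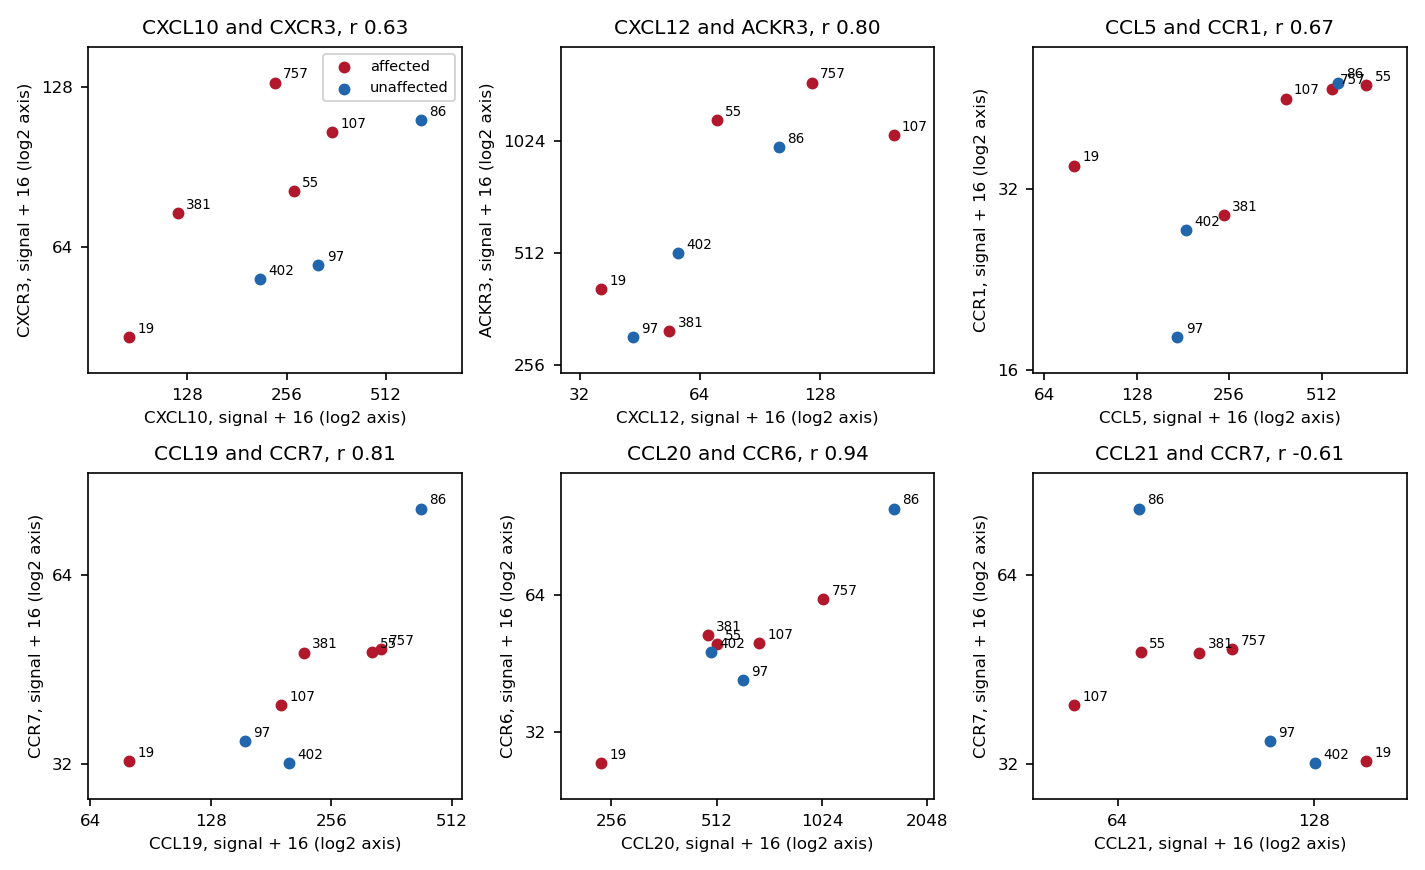
Signal + 16 of each chemokine (horizontal, log2 axis) against its receptor (vertical, log2 axis), 1 point per fox with its number, affected foxes in red and unaffected foxes in blue. In the panel of CCL20 and CCR6 (r 0.94) foxes 19 and 86 lie at the 2 ends and the other 6 foxes between them.

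Among 10487 other genes tested, those with the pattern over the 8 foxes most like each chemokine were found by Pearson r, which is a description with no test. CXCL8 was closest to IL22RA2, a soluble binder of IL-22, with r of 0.966, and to CCR1 with 0.964. CXCL13 was closest to SLAMF1 at 0.974 and VAV1 at 0.969, both signalling proteins of lymphocytes. CCL19 was closest to TRANK1 at 0.984 and to BLK, a kinase of B cells, at 0.981. CCL20 was closest to TTC14 at 0.993 and to LAMP3, a marker of mature dendritic cells, at 0.983. CCL5 was closest to KBTBD7 at 0.990 and PGAP6 at 0.983, CXCL14 to SAMSN1 at 0.980 and SCG5 at 0.978, and CXCL10 to MYL3 at 0.963 and NUTF2 at 0.955.

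The number of genes with an r above 0.9 was 147 for CCL5, 145 for CXCL13, 109 for CCL20, 104 for CXCL14 and 84 for CCL19. It was 14 to 30 for CXCL8, CXCL10, CXCL12, CCL2 and CCL21. CXCL12 was closest to ECRG4 at 0.937 and MGAM at 0.934, CCL2 to DCP2 at 0.958 and TSKU at 0.954, and CCL21 to ABRACL at 0.954 and GEN1 at 0.936. ABRACL read 1444, 482, 335, 563 and 486 in affected foxes and 366, 811 and 1168 in unaffected foxes, so foxes 19, 402 and 97 were high for it as for CCL21.

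Genes that induce these chemokines divided in direction. Of 22 cytokines and adaptors tested upstream, 10 had a higher and 12 a lower mean in affected foxes, with a median difference of -0.053 and no limma adjusted p under 0.05. IL1B, which induces CXCL8, read 36.2, 33.6, 40.1, 26.3 and 31.8 in affected foxes and 29.2, 7.22 and 9.43 in unaffected foxes. The difference was 0.72 ± 0.23 (SE), with an unadjusted limma p of 0.0109. The signal of fox 97 lay below its background of 9.46, and that of fox 402 near its background of 7.42. No other IL1B probe set was tested. As for the brightest CXCL8 probe set, fox 86 lay among the affected foxes and foxes 97 and 402 below all of them. In the other CXCL8 probe sets fox 402 (1625 and 1429) lay above affected fox 381 (1568 and 1352). IL1A differed by 0.77 ± 0.39, TNF by -0.46 ± 0.23 and MYD88, the adaptor of IL-1 and Toll-like receptors, by -0.34 ± 0.20 (SE), each with a limma adjusted p of 0.9999. The other MYD88 probe sets tested differed by 0.08 and -0.24, so they disagreed in direction.

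Of 19 genes of NF-kB and its early targets, 10 had a higher and 9 a lower mean, with a median of 0.001. ICAM1, an adhesion molecule for leukocytes, differed by 0.82 ± 0.54 (0.41 in its other probe set) and the subunit RELA by -0.54 ± 0.25 (SE). Of 12 genes of the interferon gamma axis, 3 had a higher and 9 a lower mean, with a median of -0.087. IDO1, a tryptophan-degrading enzyme, differed by 0.48 ± 0.44 (0.27 and 0.18 in its other probe sets) and the receptor chain IFNGR1 by -0.48 ± 0.51 (SE). None of these genes passed the limma adjusted threshold.

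Of 12 other chemokines tested, 11 had a higher mean in affected foxes and 1 a lower one, against 43.5% of all probe sets with a higher mean. The median difference was 0.11, the smallest of the higher ones was 0.003, and 1 gene had an unadjusted limma p under 0.05. That gene was CCL3, an attractant of monocytes and neutrophils, which read 109, 71.8, 37.5, 32.4 and 26.4 in affected foxes and 31.2, 27.0 and 6.77 in unaffected foxes. Foxes 19 and 55 were high, and fox 402 was low, below its background of 7.42. The difference was 0.87 ± 0.38 (SE) with a limma adjusted p of 0.9999, and the other CCL3 probe set tested differed by 0.63. CCL4 differed by 0.43 ± 0.32 and CCL17, a ligand of CCR4, by -0.24 ± 0.24 (SE). CCRL2, an atypical receptor, differed by 0.47 ± 0.34 (SE).

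Of 6 neutrophil markers tested, 5 had a higher mean in affected foxes, against 43.5% of all probe sets, with a median difference of 0.079. MMP9, a gelatinase stored in neutrophil granules, had the smallest unadjusted limma p among the 6. It read 71.03, 182, 55.3, 60.3 and 78.4 in affected foxes and 30.7, 15.2 and 33.7 in unaffected foxes. Every affected fox thus lay above every unaffected one, as in 0.909% of all probe sets tested. No other MMP9 probe set was tested. The difference of MMP9 was 1.23 ± 0.33 (SE), with a limma adjusted p of 0.9999. LTF differed by 1.275 ± 0.506 and CD177, the marker with a lower mean, by -0.28 ± 0.226 (SE). The remaining markers CSF3R, S100A8 and S100A9 differed by 0.062, 0.06 and 0.096. The summed markers, most of which is S100A8 and S100A9 that keratinocytes also make, were 25480 to 30670 in affected foxes and 25250 to 29010 in unaffected foxes. MPO, ELANE and MMP8, which define the granules, fell below the filter. The part of neutrophils in the level of CXCL8 was not tested.

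Between females and males, with the group as a term, 9 of the 18 chemokine probe sets were higher in females and 9 lower. The differences ran from -0.56 ± 0.50 for the brighter CXCL10 probe set to 0.48 ± 0.45 for the third CXCL8 probe set (SE). None had an unadjusted limma p under 0.05, the smallest being 0.29, where 2.29% of all probe sets had one. At an adjusted p under 0.05, 0.00388% of all probe sets were called.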

How the data were processed

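The deposited file gives a linear intensity for each probe set on each array, which the authors made with MAS5 per the submitters' processing notes. Its version and scaling are not stated in the sources at hand. The mean trimmed by 2% at each end was 150.0 on every array. Probe sets were named from the platform annotation, 1 symbol each. Values were used as log2(signal + 16) without normalizing again, which shrinks the differences of dim probe sets. The 111 controls and the lowest 40% by mean log2 value were dropped. Background was the 95th percentile of 42 bacterial probe sets per array.

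Groups were compared over 25754 probe sets with limma 3.58.1 in R 4.3.3 (lmFit, eBayes, Benjamini-Hochberg, threshold 0.05). Group was the sole term, to which the sex tests added sex or its interaction. Single probe sets were tested by two-sided exact permutation with scipy 1.17.1. Correlations were tested by two-sided exact permutation over all pairings of the foxes, computed with numpy 2.4.6, within sets where values were centred. The brightest probe set by mean log2 value stood for a gene. The fits were tested on simulated arrays. Precision is limited by how few arrays there are. The members, lists and tests were chosen with earlier results of these data known. Named were all members, their tested receptors, up to 2 genes per direction of each list by smallest p, and the 2 genes most like each member, passing over unnamed loci and receptor segments; pairs of chemokines were named after their values were seen. Alternatives covered the offset, normalization, filter, sex, actin, array weights, prior variance and each fox left out.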

Additional observations from a re-analysis of the deposited data

Results flagged for a closer look

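The chemokine probe sets and 20 other named genes gave 38 groups of 5 affected foxes to examine. Of these, 4 held a fox that stood apart from the other 4 by more than Dixon's criterion at 95%, and chance marks about 1 group in 20. Affected fox 19 read 35.7 in the first CXCL13 probe set, where the other affected foxes read 158 to 193. The same fox read 11.3 for CCR6, the receptor of CCL20, against 33.8 to 46.6 in the others. Affected fox 757 read 907 for MYD88, against 538 to 625 in the others. Affected fox 55 read 182 for MMP9, against 55.3 to 78.4 in the others. Unaffected foxes were not examined in this way, since there were 3.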

How the results depend on the processing

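No probe set of any gene had an adjusted p under 0.05 in any of the alternatives run for affected against unaffected. At a threshold of 0.1 none was called over all foxes and 1 among females alone, and the smallest adjusted p of a chemokine probe set over them was 0.184. No chemokine probe set had an exact permutation p under 0.05 over all 8 foxes with either other offset or either normalization. With a fox left out, too few splits remain for this test to reach 0.05, so those alternatives cannot decide. The smallest exact permutation p among them was 0.0571, for the second CXCL8 probe set without fox 381. No pair of chemokines had an adjusted p under 0.05 in the alternatives run for pairs. Of the 18 chemokine probe sets, 6 kept their direction in every alternative, among them all 3 of CXCL8. Of 20 other named genes examined in this way, 14 did. No paired analysis was possible because the fox numbers name animals and are not shared between the groups. The limits are 3 unaffected foxes, 1 of them female, dog probe sets read with fox RNA, and signals near background for the dimmer probe sets; the cause of the changes below was not tested.

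The count of 11 higher means was 6 among males alone, 16 among females alone and 7 to 14 with each fox left out, 7 without fox 97 or 402. The filter on the lowest 60% kept 16 of the 18 probe sets, so it gave no such count. The count for female against male was 1 to 2 with each fox left out, 2 without fox 55. The 3 receptor pairs called became 1 without the 2 foxes farthest from the median, and 0 to 4 with each fox left out, 4 without fox 107.

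Among males alone the difference was -0.18 for the second CXCL12 probe set, -0.59 and -0.87 for CXCL13, -0.010 for the first of CXCL14, -0.17 for CCL5 and -0.17 for CXCR3. Among females alone, added after seeing the data and with 1 unaffected fox that is assumed to vary like the affected ones, it was 0.54 for the second CXCL10 probe set, 0.44 and 0.77 for CCL19, 0.51 and 0.74 for CCL20, 0.25 for CCR6, 0.60 for CCR7, 0.39 for CCL17 and 0.74 for IFNGR1. Within the foxes of high 5′ actin, also added, it was 0.012 for the second CCL19 probe set, -0.17 for CCL4 and 0.089 for IFNGR1, and within those of low 5′ actin -0.13 for the first CXCL12 probe set, 0.40 for CCR7 and 0.14 for CCL17. With array weights it was 0.003 and 0.046 for CCL19 and 0.11 for CCR7. With the actin ratio as a covariate it was 0.004 for the second CCL19 probe set, 0.011 for CCR7 and 0.12 for IFNGR1, and with the actin set as a block 0.012 for CCR7.

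With each fox left out, differences crossed 0 for the second CXCL10 probe set (-0.80 to 0.17), the second of CXCL12 (-0.12 to 0.41), CXCL13 (-0.30 to 1.03 and -0.19 to 2.46), CXCL14 (-0.19 to 0.83 and -0.13 to 1.11), CCL5 (-0.061 to 0.80), CCL19 (-0.51 to 0.22 and -0.55 to 0.34), CCR6 (-0.56 to 0.065), CCR7 (-0.31 to 0.36) and CCL4 (-0.006 to 0.72). The r of CXCL8 with CXCL10 was 0.58 with values centred within the groups, 0.39 without the 2 farthest foxes, -0.01 with the mean over all probe sets of each gene and -0.05 to 0.33 with each fox left out.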

Other observations

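Genes that process or hold chemokines differed in direction. Of 8 tested, 4 had a higher and 4 a lower mean in affected foxes, with a median difference of 0.08. DPP4, a membrane peptidase that trims the ends of CXCL10 and CXCL12, read 32.1, 28.4, 39.4, 114 and 63.3 in affected foxes 19, 55, 107, 381 and 757, and 38.1, 129 and 190 in unaffected foxes 86, 97 and 402. Foxes 97 and 402 were above every affected fox, and fox 86 was among the low ones. The difference was -0.84 ± 0.46 (SE), with a limma adjusted p of 0.9999.

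Fibroblast markers summed to 9943 to 27120 in affected foxes and 8070 to 30280 in unaffected foxes, highest in fox 86. Of the 6 tested, 4 had a higher and 2 a lower mean in affected foxes, with a median difference of 0.13.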
